A study of Mus musculus with 2 samples.

Results

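The genes described here are 52 genes of the mitotic machinery, from the cyclins and kinases that start mitosis to the proteins that cut the cell in 2. The rule lists them by name and uses no level, although the list was drawn up with earlier results of these data known. They were found by Ensembl identifier among the 43346 Ensembl genes of each deposited gene table; all 52 were matched. Levels came from total RNA of erythroid progenitor cells, labelled CFU-Ery, which are committed, rapidly dividing precursors of red blood cells. They were primary cells of adult male mice of strain C57BL/6J, aged 5 to 6 weeks. The only group has 2 libraries, biological replicates 1 and 2 by their labels, and 1 ng of RNA with spike-in transcripts went into each. Both libraries carry the same donor record and separate biosample records, so the spread between them may be technical. There is no second condition, and an exact sign-flip test over 2 libraries cannot go below p = 0.5. Levels are therefore given as mean ± SD (n = 2) with the value of each library, and no test is made between them.

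At mitosis, CDK1 bound to a B-type or A-type cyclin drives chromosome condensation and spindle assembly. Kinetochores tie each chromosome to spindle microtubules, and a checkpoint holds back the anaphase-promoting complex (APC/C), a ubiquitin ligase, until all are attached. The APC/C then marks securin and cyclin B for destruction, the sister chromatids part, and the spindle midzone directs the furrow that divides the cell. Erythroid progenitors go through several rapid divisions as they mature, and their final division is followed by loss of the nucleus. Most genes of this machinery are transcribed late in the cell cycle. Their promoters are known for the cell cycle genes homology region (CHR), an element bound by MuvB complexes, and for CCAAT boxes, which are bound by the factor NF-Y.

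RefSeq promoter windows (assembly GRCm38.p6, 250 bases before to 50 after each annotated start) were matched by symbol for 44 of the 52 genes, which have 47 windows; windows of 1 gene can overlap. For 4 genes the 150 bases before the start are shown, chosen after their motifs were seen, with CHR and CCAAT matches on either strand in capitals. Ccnb2 shows a row of CCAAT boxes, Cdc20 and Kif11 show both motifs close to the start, and Birc5, the highest of the 52 genes by mean level, shows neither.
Ccnb2 (chr9:70421555-70421704, minus strand): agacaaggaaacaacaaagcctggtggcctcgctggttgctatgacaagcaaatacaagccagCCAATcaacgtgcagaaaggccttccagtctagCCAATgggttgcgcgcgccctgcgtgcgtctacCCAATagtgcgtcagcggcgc
Cdc20 (chr4:118437344-118437493, minus strand): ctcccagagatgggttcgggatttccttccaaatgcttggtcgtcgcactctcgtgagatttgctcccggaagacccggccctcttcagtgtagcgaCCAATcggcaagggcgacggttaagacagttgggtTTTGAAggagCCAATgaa
Kif11 (chr19:37376232-37376381, plus strand): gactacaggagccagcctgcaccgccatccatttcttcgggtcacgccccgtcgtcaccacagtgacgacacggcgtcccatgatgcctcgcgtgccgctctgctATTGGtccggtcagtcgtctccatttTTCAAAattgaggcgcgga
Birc5 (chr11:117849087-117849236, plus strand): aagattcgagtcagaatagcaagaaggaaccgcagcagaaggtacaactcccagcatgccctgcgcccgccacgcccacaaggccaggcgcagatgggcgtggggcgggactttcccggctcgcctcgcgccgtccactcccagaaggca

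A CHR element was searched as TTTGAA or TTCGAA on both strands, and a CCAAT box as CCAAT on both strands. A CHR element was present in 35 of the 47 windows (74.5%), against 19.2% of all 32851 RefSeq windows. CCAAT was present in 34 windows (72.3%), against 37.4% of all windows. Both motifs stood in 30 windows (63.8%), against 7.52%. Only 1 CHR match and 1 CCAAT match overlapped each other. A match describes letters and is not a bound site.

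Most matches lay near the start. Matches in overlapping windows of Bub3, Ect2 and Prc1 were counted in each window. Counted from the first base of the motif, with the annotated start as base 1 and the base before it as -1, the 45 CHR matches had a median position of 2. Of these, 34 began from 50 bases before to 50 after the start. By windows, a CHR match lay within the 100 bases around the start in 32 of 47 (68.1%), against 5.31% of all RefSeq windows. The 66 CCAAT matches had a median position of -53.5, and 49 began within the 100 bases before the start. CCAAT positions were not counted over all RefSeq windows. In Ccnb2, the CCAAT boxes began at -87, -54 and -21, and a CHR match past the printed stretch began at base 5. In Kif11, a CCAAT match on the minus strand began at -45 and a CHR match at -19. In Cdc20, the CHR match began at -18, between CCAAT boxes at -53 and -8.

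**Figure D1:**
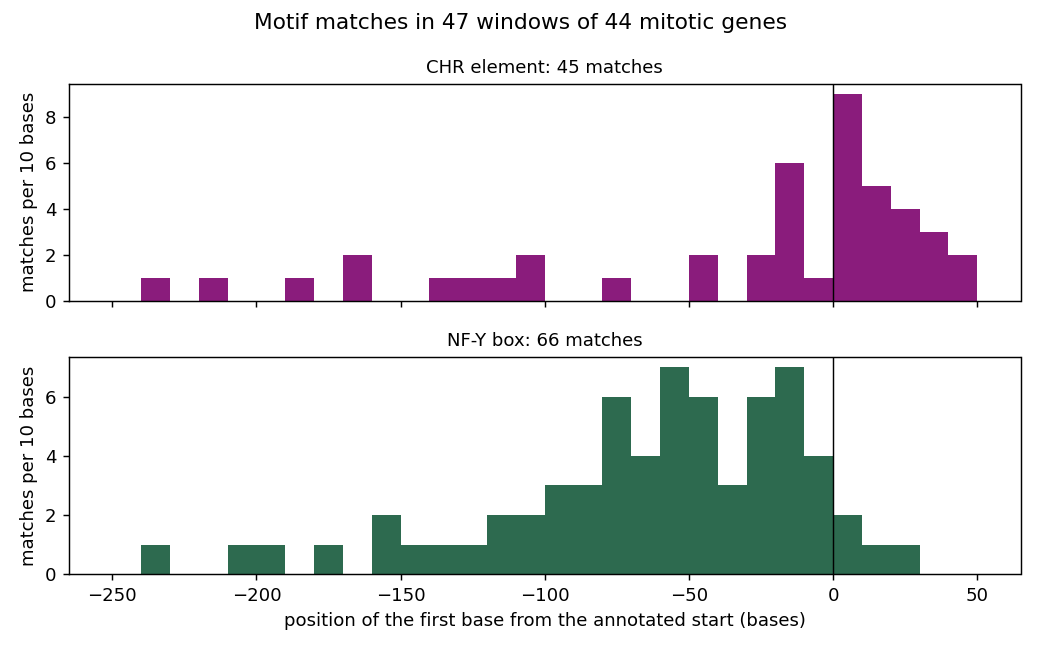
Positions of motif matches in 47 promoter windows of 44 mitotic genes, as matches per 10 bases against distance from the annotated start in bases; the NF-Y box is the CCAAT box. The 45 CHR matches gather around the start (median position 2), and the 66 CCAAT matches lie mostly before it (median -53.5).

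Among the windows with 2 or more CCAAT matches, neighbouring matches began 31 to 35 bases apart in 9 of 22 (40.9%), against 11.1% of the 3842 such RefSeq windows. This range of spacing was chosen after the positions in Ccnb2 were seen. The 9 windows belong to Aurka, Ccnb1, Ccnb2, Cdca8, Cdk1, Ckap5, Hmmr, Nek2 and Spc25. The same motifs were counted in other lists. A CHR element was present in 34 of 67 windows (50.7%) of a list of other mitotic genes, 4 of 18 (22.2%) of APC/C genes and 6 of 34 (17.6%) of DNA replication genes. In nuclear protein-coding genes of at least 1 TPM (transcripts per 1000000, a level scaled for length) in both libraries it was present in 454 of 2746 windows (16.5%). CCAAT was present in 46 of the 67 windows of other mitotic genes (68.7%), close to the 72.3% above, and in 19 of the 34 of DNA replication genes (55.9%). It was present in 7 of the 18 of APC/C genes (38.9%) and in 40.5% of the 2746. The shares were not compared by a test, so no motif is shown to be particular to the 52 genes.

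Levels overlapped between genes with and without a CHR match. The median level was 4.68 TPM in the 32 genes with a CHR match and 5.63 TPM in the 12 without. Neither motif was found in 8 genes, whose levels ran from 1.56 TPM (Pttg1) to 21.97 TPM (Birc5). The others of these 8 were Mad2l1, Nuf2, Knstrn, Nusap1, Tacc3 and Cit.

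The libraries held 143491647 (replicate 1) and 110634458 (replicate 2) expected counts. Nuclear protein-coding genes had only 3.29% and 3.70% of them. A level of 1 TPM corresponds to 43.1 and 37.0 TPM once nuclear protein-coding genes alone are scaled to a sum of 1000000, called rescaled TPM below. All 10 erythroid marker genes reached 1 TPM in both libraries, with summed levels of 407 and 465 TPM. All 10 markers of neutrophils and their precursors did so too, with 542 and 734 TPM. Fewer markers of other lineages passed, namely 5 of 7 for macrophages (summed levels 12.0 and 15.4 TPM), 3 of 7 for B cells (16.6 and 18.5) and 4 of 6 for basophils, eosinophils and mast cells (11.5 and 12.2). The remaining lists gave 1 of 6 for T and NK cells (3.18 and 3.71) and 0 of 6 for megakaryocytes (2.27 and 2.73). For stem cells and multipotent progenitors it was 0 of 7 (1.08 and 1.07). None of these markers was at 0 counts in both libraries. The part of cells of other lineages in the levels below was not tested.

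Nearly all of the mitotic genes were expressed. In both libraries 51 of 52 reached 1 TPM, against 12.6% of the 21461 nuclear protein-coding genes. The exception was Spc24, a subunit of the NDC80 kinetochore complex, at 1.02 TPM in replicate 1 and 0.91 in replicate 2 (163 and 114 expected counts). At 5 TPM in both libraries the count was 22 of 52, against 2.69% of nuclear protein-coding genes. The median was 4.94 ± 0.350 TPM (SD, n = 2), or 197 ± 7.44 rescaled TPM. Nuclear protein-coding genes that reached 1 TPM had a median of 2.55 ± 0.184 TPM. In bulk RNA, fewer dividing cells and less RNA per cell cannot be told apart.

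Together the 52 genes summed to 311 TPM in replicate 1 and 349 TPM in replicate 2, which is 1.34% and 1.29% of nuclear protein-coding TPM. They ranked from 115 (Birc5) to 3144 (Spc24) among 21461 genes by mean level, with a median rank of 647, and 39 were among the top 1000. Every one had at least 100 expected counts in both libraries, the range being 111 (Pttg1 in replicate 1) to 9681 (Cenpf in replicate 1), and 34 had at least 1000. The order of neighbouring genes is mostly not resolved. Of 51 neighbouring pairs in the order of mean level, library values did not overlap in 8.

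**Figure D2:**
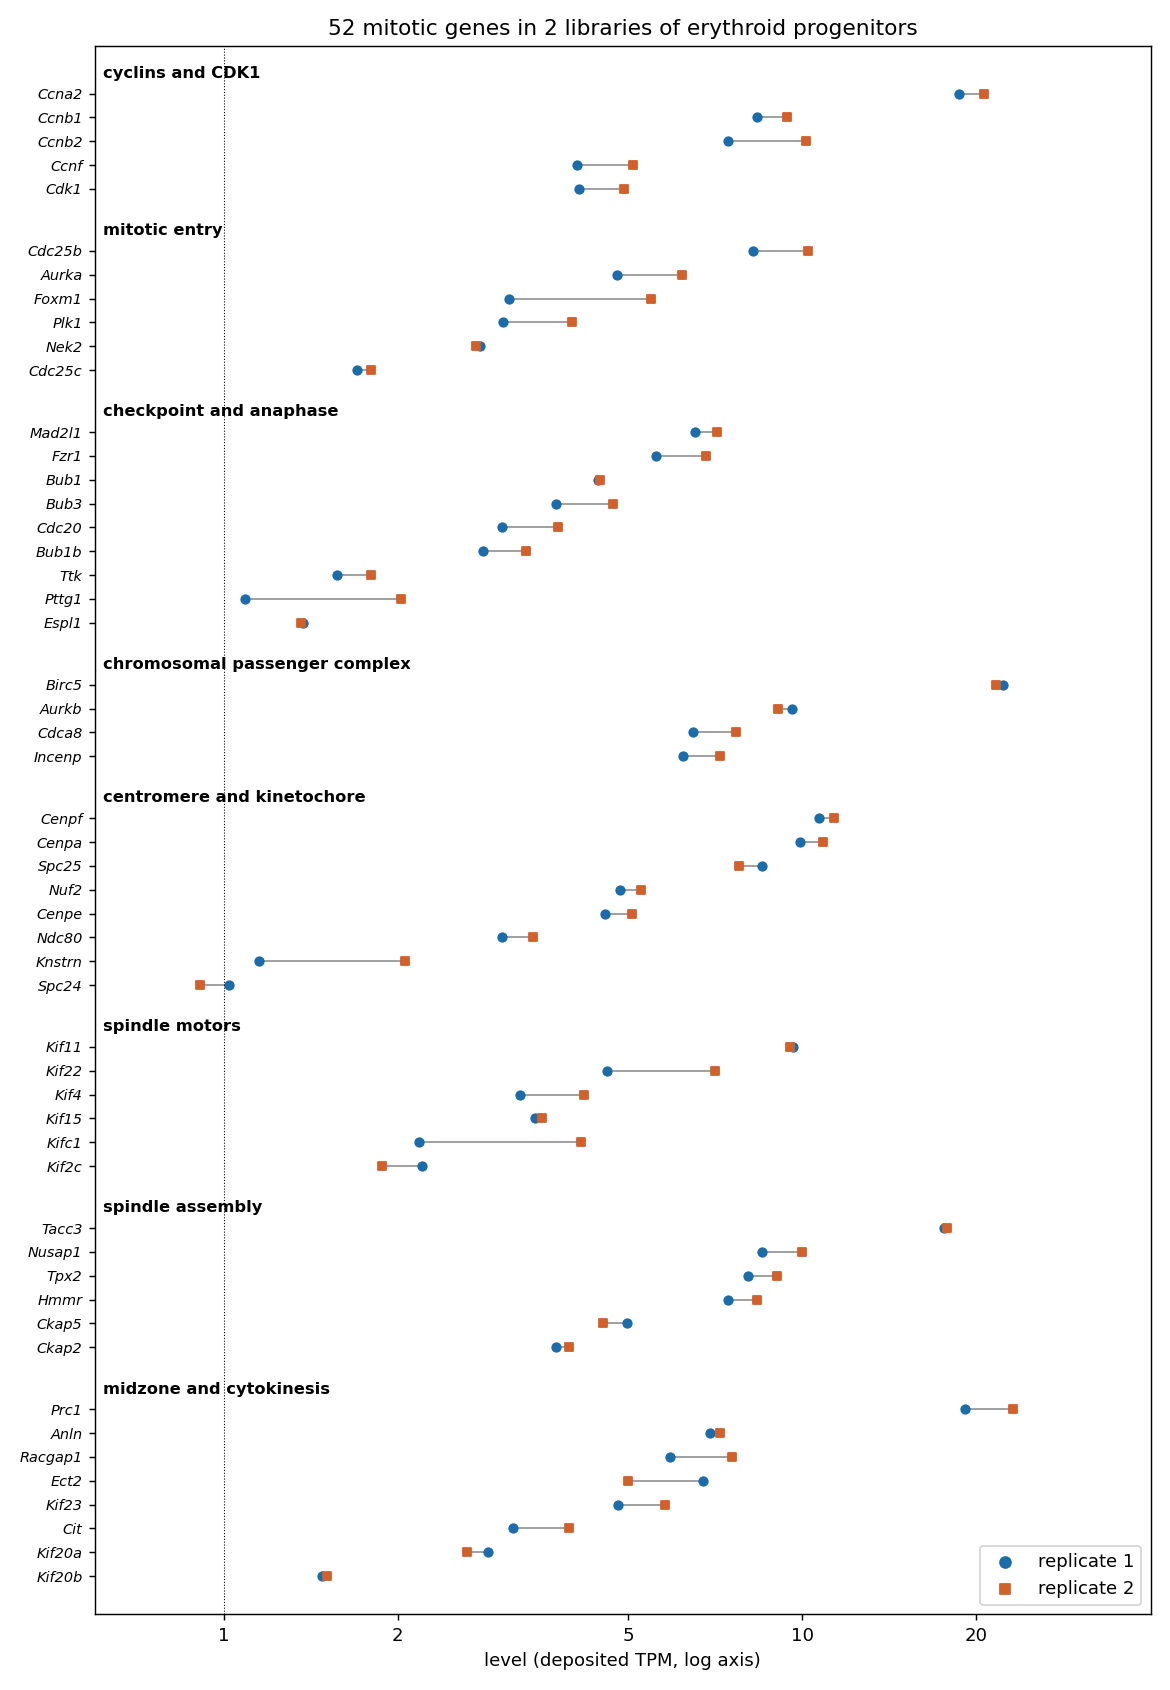
Level of each of the 52 mitotic genes in replicate 1 (circles) and replicate 2 (squares), in deposited TPM on a log axis, grouped by role; the dotted line marks 1 TPM. Birc5, Prc1, Ccna2 and Tacc3 stand above 17 TPM in both libraries, and Spc24 alone falls under 1 TPM in 1 of them.

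The A-type and B-type cyclin genes stood higher than the gene of their kinase. Ccna2 (ENSMUSG00000027715.5, chromosome 3, 36564865 to 36572150, GRCm38), whose cyclin acts from S phase into mitosis, was at 18.64 TPM in replicate 1 and 20.62 in replicate 2. The B-type cyclin gene Ccnb1 was at 8.36 and 9.40 TPM, and Ccnb2 at 7.43 and 10.14. Cdk1, the kinase that both cyclins activate, was at 4.12 and 4.92 TPM. Ccnf, whose product names proteins for destruction as part of a ubiquitin ligase, was at 4.09 and 5.11. On the log2 scale Ccna2 exceeded Ccnb1 by 1.15 ± 0.02 (2.21-fold), which is larger than the spread between the libraries. Ccnb1 exceeded Cdk1 by 0.98 ± 0.06. The log2 ratio of Ccnb1 to Ccnb2 was 0.17 in replicate 1 and -0.11 in replicate 2, so neither B-type cyclin gene was higher in both libraries. Over transcripts annotated as complete and coding, a measure described further on, Ccnb2 was the higher in both (-0.48 and -0.54).

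Genes of mitotic entry had a median of 3.91 ± 1.18 TPM. Cdc25b and Cdc25c encode phosphatases that switch on CDK1, and their levels lay far apart. Cdc25b was at 8.21 and 10.22 TPM in replicates 1 and 2, and Cdc25c at 1.70 and 1.80, a log2 ratio of 2.39 ± 0.17 (5.24-fold). Aurka, the kinase of spindle poles, was at 4.79 and 6.19 TPM. Plk1, a kinase with roles from centrosomes to cytokinesis, was at 3.04 and 4.0. Nek2, a kinase that helps centrosomes part, was at 2.77 and 2.73. Foxm1, a transcription factor of mitotic genes, differed more between the libraries, with 3.11 TPM in replicate 1 and 5.48 in replicate 2.

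Checkpoint and anaphase genes were the lowest role by median, at 3.41 ± 0.530 TPM, and the spindle motors and mitotic entry genes lay within its spread. Mad2l1, whose product binds and holds back CDC20, led the checkpoint genes at 6.53 and 7.12 TPM. Bub1, a kinetochore kinase, was at 4.44 and 4.47 TPM, and its paralog Bub1b at 2.81 and 3.33, a log2 ratio of 0.54 ± 0.17. Bub3, the partner of both, was at 3.76 and 4.72, and its log2 ratio to Bub1 changed sign between the libraries (-0.24 and 0.08), while over complete coding transcripts Bub3 was the higher in both (0.38 and 0.76). Ttk, the kinase that starts checkpoint signalling, was at 1.57 and 1.80.

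Cdc20 and Fzr1 encode the APC/C activators of early mitosis and of late mitosis and G1. Cdc20 was at 3.03 and 3.78 TPM and Fzr1 at 5.59 and 6.82, a log2 ratio of -0.87 ± 0.02 that is larger than its spread. The genes of sister chromatid separation were among the lowest. Espl1, encoding separase, was at 1.37 and 1.36 TPM. Pttg1, encoding securin, its inhibitor, was at 1.09 TPM in replicate 1 and 2.03 in replicate 2, and the log2 ratio of Pttg1 to Espl1 was -0.33 and 0.58. These values rest on 111 and 200 counts of Pttg1. The counting interval of the log2 ratio was -0.62 to -0.05 in replicate 1 and 0.36 to 0.81 in replicate 2. These intervals do not overlap, and the libraries gave opposite orders. Which of the genes is higher was therefore not resolved, and the cause of the difference was not tested.

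The chromosomal passenger complex corrects wrong attachments and later acts in cytokinesis, and all 4 of its genes were above 6 TPM. Birc5 (ENSMUSG00000017716.11, chromosome 11, 117849251 to 117855743), encoding survivin, was at 22.28 TPM in replicate 1 and 21.66 in replicate 2. The kinase gene Aurkb was at 9.60 and 9.08 TPM. The scaffold gene Incenp was at 6.22 and 7.22, and Cdca8, encoding borealin, at 6.48 and 7.70. Birc5 exceeded Incenp by a log2 ratio of 1.71 ± 0.18 (3.28-fold) and Aurkb by 1.23 ± 0.03, or by 2.24 ± 0.16 over complete coding transcripts. Cdca8 and Incenp differed by a log2 ratio of 0.08 ± 0.02, and the 95% counting interval included 0 in both libraries (-0.04 to 0.16 and -0.01 to 0.19). Aurka was under Aurkb in both libraries, with log2 ratios of -1.003 and -0.55. Over complete coding transcripts this direction did not hold, with log2 ratios of -0.19 and 0.37 (mean 0.089).

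Centromere and kinetochore genes covered a wide range of levels. Cenpf, encoding a large outer kinetochore protein, was at 10.68 and 11.37 TPM, and Cenpa, encoding the histone variant of centromeres, at 9.91 and 10.86. Cenpe, encoding a kinetochore motor, was at 4.57 and 5.08, under Cenpf by a log2 ratio of -1.19 ± 0.04. Over complete coding transcripts, which held 54.97% of Cenpf, that ratio was -0.33 ± 0.04 and no longer past 2-fold. The NDC80 complex, which grips microtubules, holds equal numbers of 4 subunits. Their gene levels were not equal, at 7.78 to 8.54 TPM for Spc25, 4.85 to 5.27 for Nuf2, 3.03 to 3.42 for Ndc80 and 0.91 to 1.02 for Spc24. The log2 ratio of Spc24 to Spc25 was -3.08 ± 0.02 (8.46-fold), and that of Ndc80 to Nuf2 was -0.65 ± 0.04. The order turns over complete coding transcripts alone. There Spc25 was at 1.51 and 2.62 TPM, under Nuf2 (4.40 and 5.01) and Ndc80 (3.03 and 3.42), and only Spc24 kept its place as the lowest. The log2 ratio of Spc24 to Spc25 was then -0.57 and -1.53, past 2-fold in replicate 2 alone. Knstrn, a spindle and kinetochore protein gene, was at 1.15 and 2.06.

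Among the spindle motors Kif11 was highest, at 9.66 and 9.51 TPM; its product pushes the spindle poles apart. Kif15, encoding a motor with an overlapping task, was at 3.45 and 3.55, so that Kif11 exceeded it by a log2 ratio of 1.45 ± 0.05 (2.74-fold). The chromosome-arm motor genes Kif22 and Kif4 were at 4.60 and 7.07 TPM and at 3.26 and 4.20. Kif2c, encoding a motor that takes microtubules apart, was at 2.20 and 1.88. Kifc1, encoding a minus-end motor, was at 2.18 and 4.15, the widest gap between the libraries of all 52 genes by centred rescaled TPM. On centred counts the gap of Pttg1 was wider (log2 ratio -1.07, against -0.62 for Kifc1).

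Spindle assembly genes had a median of 8.22 ± 0.672 TPM. Tacc3 was at 17.61 and 17.81 TPM and its partner at microtubule ends, Ckap5, at 4.98 and 4.53. Nusap1, encoding a microtubule-bundling protein, was at 8.53 and 9.98 TPM. Tpx2, encoding the activator of Aurora A, was at 8.05 and 9.03, above Aurka by a log2 ratio of 0.65 ± 0.14. Hmmr, a spindle protein gene, was at 7.44 and 8.36, and Ckap2, encoding a microtubule-associated protein, at 3.76 and 3.96.

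Midzone and cytokinesis genes had a median of 5.38 ± 0.0354 TPM, led by Prc1 (ENSMUSG00000038943.12, chromosome 7, 80294450 to 80316259), whose product bundles midzone microtubules, at 19.10 and 23.18 TPM, under Birc5 in replicate 1 and above it in replicate 2. Anln, encoding the furrow scaffold anillin, was at 6.94 and 7.21. The centralspindlin genes Kif23 and Racgap1 were at 4.80 and 5.80 TPM and at 5.90 and 7.57, a log2 ratio of -0.34 ± 0.06. This direction turned over complete coding transcripts (0.058) and on counts not scaled by length (0.060). Ect2, which activates RhoA at the furrow, leaned to replicate 1 more than any other of the 52 genes, at 6.74 and 5.00. The log2 ratio of Racgap1 to Ect2 changed sign, at -0.19 and 0.60. Cit, encoding citron kinase, was at 3.17 and 3.96 TPM. Kif20a was at 2.86 and 2.64 and Kif20b at 1.48 and 1.51; both encode midzone motors.

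Across the 22 partner and paralog ratios fixed for comparison, 9 exceeded 2-fold in the same direction in both libraries. The largest were Spc24 to Spc25 and Cdc25b to Cdc25c. Over complete coding transcripts 6 of these 9 were still past 2-fold in both libraries, Cdc25b to Cdc25c among them (1.87 ± 0.12). The 3 that were not are Spc24 to Spc25, Cenpe to Cenpf and Tacc3 to Ckap5. In 4 ratios the sign differed between the libraries, namely Ccnb1 to Ccnb2, Pttg1 to Espl1, Racgap1 to Ect2 and Bub3 to Bub1. Counting intervals cover counting error only, since reads without molecular identifiers are not independent molecules.

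**Figure D3:**
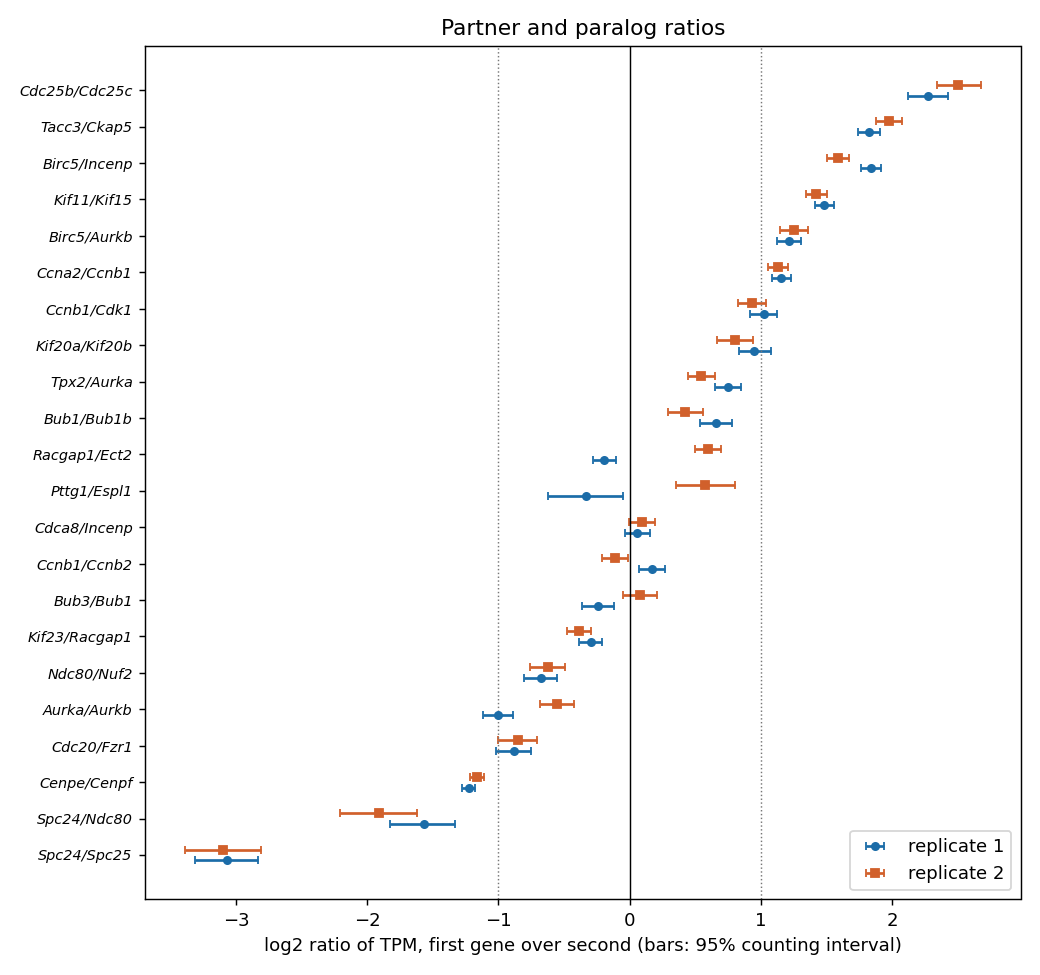
Log2 ratio of TPM for 22 pairs of mitotic genes in replicate 1 (circles) and replicate 2 (squares), with 95% counting intervals as bars; dotted lines mark 2-fold. The ratio of Spc24 to Spc25 lies near -3 in both libraries, and 9 pairs lie past 2-fold on the same side in both, over all transcripts of each gene.

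Levels of the 52 genes were also compared between the 2 libraries. Ratios of rescaled TPM + 1, replicate 1 over replicate 2, were centred on the median of the 5340 nuclear protein-coding genes whose expected count averaged 100 or more. None of the 52 genes was over 2-fold apart, against 6.91% of those 5340 genes and 1.54% of the 2656 that also reached 1 TPM in both libraries. The second share is the closer comparison, since 51 of the 52 genes reached 1 TPM, and a count of 0 is near it. The log2 ratios of the 52 genes ran from -0.78 to 0.57 with a median of -0.03, and 30 genes leaned to replicate 2 and 22 to replicate 1. At 1.5-fold the count was 4 of 52, against 21.8% of the 5340 genes. These were Kifc1 (-0.78), Pttg1 (-0.74), Knstrn (-0.69) and Foxm1 (-0.67), all higher in replicate 2. The 21.8% includes genes under 1 TPM, and no share at 1.5-fold was counted over the 2656 genes. On expected counts scaled by TMM or by DESeq2 size factors, Pttg1 alone was over 2-fold apart, higher in replicate 2. On expected counts centred on their median log2 ratio instead, Pttg1 was 2.09-fold apart. By these median-centred counts Foxm1 (log2 ratio -0.39) and Knstrn (-0.34) were not past 1.5-fold. All 5 cyclin and Cdk1 ratios leaned to replicate 2, from -0.31 for Ccnb2 to -0.003 for Ccna2. Centring splits the 5340 genes evenly, 2670 to each side. Each other role was split, such as 5 of 8 centromere and kinetochore genes toward replicate 1. Of checkpoint and anaphase genes, 6 of 9 leaned to replicate 2. By the same centred ratio of rescaled TPM, 8 of 10 neutrophil markers leaned to replicate 2 and 2 to replicate 1, with a median of -0.25. Erythroid markers were split 5 and 5, with a median of -0.015. The part of other lineages in these differences was not tested.

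**Figure D4:**
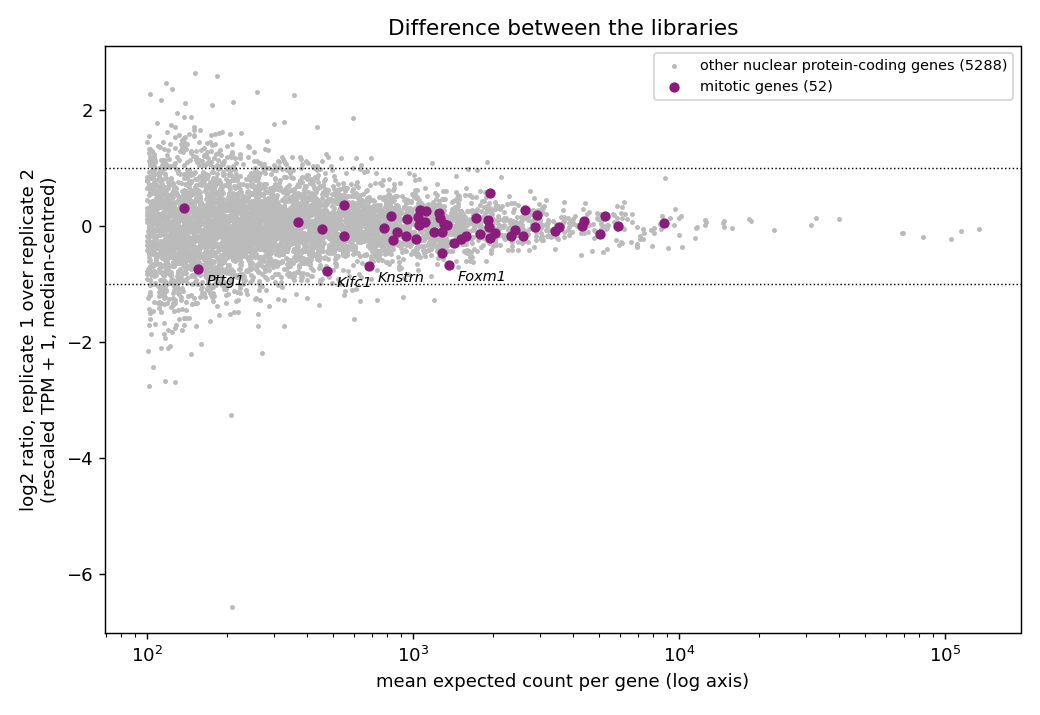
Median-centred log2 ratio of rescaled TPM + 1, replicate 1 over replicate 2, against mean expected count on a log axis, for nuclear protein-coding genes (grey) and the 52 mitotic genes (purple); dotted lines mark 2-fold. All 52 lie inside the lines, and the 4 named genes are the ones past 1.5-fold.

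A gene's TPM sums over all its annotated transcripts, and short or cut-off models can carry much TPM from few reads. In the 52 genes, protein-coding transcripts with complete ends held 75.1% ± 0.684 (SD, n = 2) of TPM and 89.0% ± 0.694 of counts. Coding models tagged as incomplete held 9.26% ± 0.236 of TPM, against 3.08% ± 0.0276 in all nuclear protein-coding genes of at least 1 TPM. Retained-intron transcripts held 11.4% ± 0.461, against 17.6% ± 0.585. Most of the 9.26% lay in models of Prc1, Tacc3 and Spc25. Among these were Prc1-208 (9.16 and 11.24 TPM in replicates 1 and 2), Tacc3-204 (5.46 and 9.18) and Spc25-204 (5.88 and 4.22). The share without these genes was not counted, so a higher share is not shown for the 52 genes in general. Over complete coding transcripts alone, the median of the 52 genes was 4.085 TPM. In 26 genes these transcripts held at least 90% of TPM, and in 6 genes under 50%. These counts were not made over other genes. In all nuclear protein-coding genes of at least 1 TPM, complete coding transcripts held 73.1% ± 0.931 of TPM.

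Much of the level of Prc1 and Tacc3 lay outside complete coding transcripts. Prc1-208, an incomplete coding model of 1821 nt, held 47.98% and 48.47% of Prc1 TPM in replicates 1 and 2. Complete coding transcripts of Prc1 stood at 4.68 ± 1.33 TPM, 22.1% of the gene's level, which moved Prc1 from place 2 to place 23 among the 52. Tacc3-204, an incomplete model of 466 nt, held 238 and 310 counts but 5.46 and 9.18 TPM. The complete Tacc3-203 of 2182 nt held 885 and 762 counts and 3.27 and 3.61 TPM. Complete coding transcripts of Tacc3 made up 19.9% of its level, at 3.53 ± 0.283 TPM, and its place went from 4 to 29. The log2 ratio of Tacc3 to Ckap5, 1.90 ± 0.11 over all transcripts, was 0.15 over complete ones.

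The same held for Spc25, with 25.3% of its level in complete coding transcripts (2.07 ± 0.785 TPM), Kifc1 with 41.9%, Cit with 49.8% and Aurkb with 49.9%. Aurkb went from place 8 to 24, at 4.66 ± 0.608 TPM, and the log2 ratio of Aurka to Aurkb was then 0.09 in place of -0.78. Birc5, Ccna2 (17.3 ± 2.43 TPM) and Kif11 took the first 3 places on this measure. Whether the incomplete models stand for true short RNAs was not tested.

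**Figure D5:**
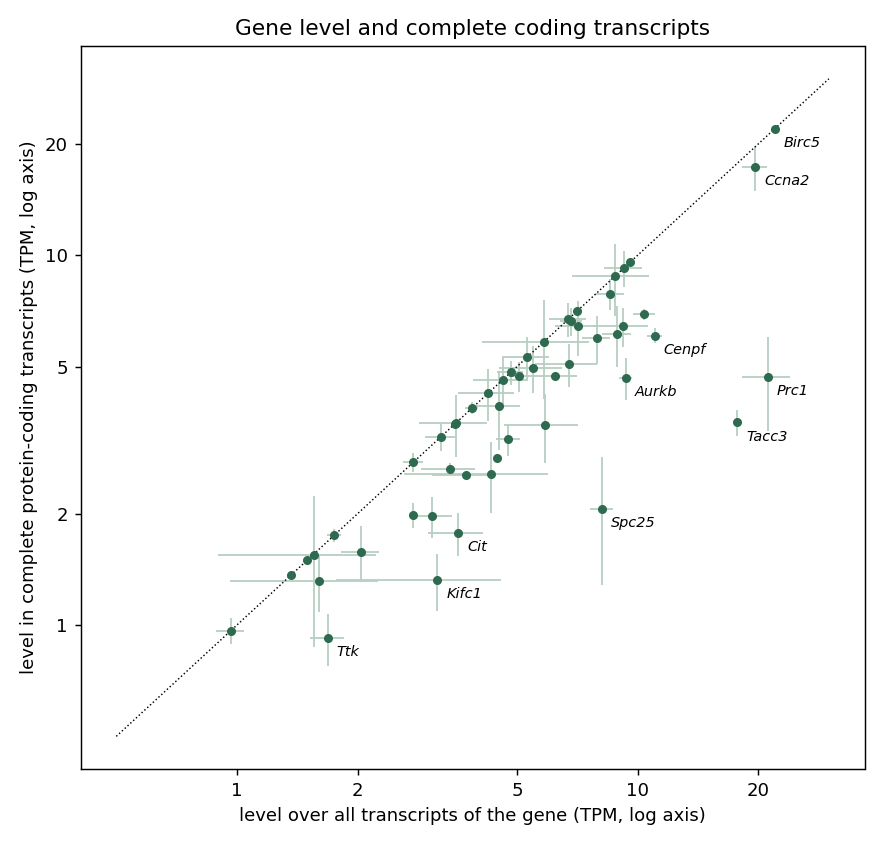
Level in complete protein-coding transcripts against level over all transcripts of the gene, in TPM on log axes, as mean and SD of 2 libraries for each of the 52 mitotic genes; the dotted line marks equality. Birc5 and Ccna2 stay near the line, while Tacc3 (19.9%), Prc1 (22.1%) and Spc25 (25.3%) lie far under it.

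Of the 52 genes, 17 had 1 annotated transcript and 35 had more. The transcript with the largest share of TPM was the same in both libraries in 30 of the 35, against 77.8% of nuclear protein-coding genes of at least 1 TPM with more than 1 transcript. The other 5 were Ccnb1, Kifc1, Ckap5, Kif20a and Ect2. In every one of the 35 the leading transcript was annotated as coding in both libraries, but in Prc1, Tacc3 and Spc25 it was a model tagged as incomplete. The share of coding leaders over other genes was not counted. In Kif20a, Kif20a-202 led in replicate 1 with 74.25% and Kif20a-201 in replicate 2 with 84.92%, and these transcripts are 3565 and 3567 nt long. In Ect2, Ect2-202 held 1110 counts in replicate 1 and 162 in replicate 2, while Ect2-207 held 884 and 1016. In Kifc1, Kifc1-201 held 172 counts in replicate 1 and 0 in replicate 2.

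An annotated retained-intron transcript existed for 29 of the 52 genes. It held over 20% of TPM in 15 of the 29, against 46.2% of the 1395 such nuclear protein-coding genes of at least 1 TPM. The highest shares were 44.8% in Ttk, 39.4% in Cit and 38.3% in Foxm1. Both checkpoint paralogs were high, Bub1b at 35.6% and Bub1 at 34.4%, and Ccnb1 stood at 30.9%. The median over the 29 was 22.2%, and 17.8% over the 1395.

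By the authors' estimate, the assignment of reads was little uncertain for most of the 52 genes. The posterior SD of the count was 0 in both libraries for 37 of the 52, a share not counted over other genes. It exceeded 1% of the posterior mean in either library in 2 genes, Kifc1 (1.58% and 1.12%) and Kif20a (0.68% and 1.10%). This was so in 8.66% of nuclear protein-coding genes of at least 1 TPM. Yet 25-base words were shared with other genes, which was counted for the 52 genes alone. Over 10% of the words were shared with other genes in 13 of the 52, and none in 5. Some of these other genes carried reads, such as Exosc9 for Ccna2 (466 and 365 counts) and Pdzd11 for Kif4 (277 and 287). Kifc1 shared 64.1% of its 25-base words with other genes, mainly with its near copy Kifc5b, which had 237 and 214 counts beside 410 and 544 of Kifc1. The level of Kifc1 is therefore uncertain. Kif20a shared 27.3%, all with Cdc23, which overlaps it on the opposite strand over 2327 bases and had 425 and 400 counts. Use of strand is not given in the sources used here. Cdc20 and Plk1 shared 34.9% and 24.4%, mostly with pseudogenes that had 0 counts. The pseudogene Ccnb2-ps had 11 and 13 counts, 0.80% and 0.88% of those of Ccnb2, and Ccnb1-ps had 0.17% and 0.28% of those of Ccnb1.

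Other genes of the pathway were lower by median. Of 78 other mitotic genes, 54 reached 1 TPM in both libraries, with a median of 1.77 ± 0.131 TPM. The highest were the tubulin genes Tuba1b (67.5 ± 2.73), Tubb4b (24.0 ± 3.04) and Tubb5 (17.2 ± 1.96) and the condensin gene Ncapd2 (25.4 ± 3.90). The lowest were Cep55, which acts at abscission (0.15 ± 0.156), and Ccnb3, a cyclin gene best known from meiosis, with 0 counts. Tubulins serve all cells, not mitosis alone.

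The APC/C list held 16 genes, of which 10 reached 1 TPM, with a median of 1.40 ± 0.131. Its ubiquitin-conjugating enzymes were far above its subunits, with Ube2c at 31.4 ± 5.11 TPM and Ube2s at 16.015 ± 2.75. The next were Anapc5 (3.47 ± 0.636) and Anapc1 (2.09 ± 0.0212), and the lowest Anapc4 (0.41 ± 0.0566) and Anapc10 (0.195 ± 0.00707). Of 34 DNA replication genes 28 reached 1 TPM, with a median of 1.99 ± 0.173. Pcna, the replication clamp (24.3 ± 0.651), and the helicase genes Mcm3 (8.31 ± 0.276), Mcm7 (5.71 ± 0.544) and Mcm6 (4.82 ± 0.184) led, and Gins3 (0.63 ± 0.212) and Fen1 (0.29 ± 0.141) were lowest. The lists were chosen by name and were not compared by a test.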

How the data were processed

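Gene and transcript tables of 2 total RNA libraries were used, 1 of each per library. Expected counts, as deposited, estimate the reads of each gene or transcript and can be fractional. The deposited TPM, given by the authors as maximum likelihood and posterior mean estimates, is scaled over all entries of a table. Isoform percent, per the file headers, gives the part of a gene's TPM that 1 transcript carries. Quantification used mm10 and GENCODE M4, per the description deposited with the files. Aligner, quantifier and strandedness: not given in the sources used here.

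Names, 1-based coordinates, transcript types and tags for incomplete ends were taken from GENCODE M21 (GRCm38), matched by Ensembl identifier (42462 of 43346 genes, and all 255 transcripts of the 52 genes). The 52 genes were all named and described by role. Of each other list, the 4 highest and 2 lowest by mean TPM were named. The genes and lists were chosen with earlier results of these data known. A gene was counted as expressed at 1 TPM. Library ratios used log2(rescaled TPM + 1), which understates differences of low genes, over genes averaging at least 100 expected counts. Expected counts were rounded for edgeR 4.0.16 (TMM) and DESeq2 1.42.0 (size factors), which served as scalings only. Counting intervals are exact binomial at 95%. Shared words of 25 bases were counted on both strands of GENCODE M21 transcripts. The count of genes apart was tested on simulated data, which checks the calculation and is no test between the libraries. The measure over complete coding transcripts was added after seeing the data. Analyses ran in R 4.3.3 and in Python 3.11.15 with scipy 1.17.1, pandas 2.3.3, matplotlib 3.10.9 and numpy 2.4.6.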

Additional observations from a re-analysis of the deposited data

How the results depend on the processing

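With 2 libraries of 1 group, every result is a description, and depth limits Pttg1 and Spc24 most. The number of genes at 1 TPM in both libraries was 51 or 52 under the other settings and 22 with a minimum of 5 TPM; leaving out 1 library gave 51 to 52. The median of 4.94 TPM was 4.085 TPM over complete coding transcripts, a measure added after seeing the data, and 4.695 to 5.19 TPM in single libraries. The number over 2-fold apart was 0 under 5 other settings, 1 with TMM, 1 with DESeq2 size factors, and 4 at 1.5-fold. Settings that changed the minimum count dropped none of the 52 genes and could act only through the centring. Of 22 ratios, 9 were past 2-fold, and 6 to 11 under the alternatives; over complete coding transcripts Spc24 to Spc25 (-1.05), Cenpe to Cenpf (-0.33) and Tacc3 to Ckap5 (0.15) were no longer past it in both libraries. The share of Ccnb2-ps, 0.84% by counts, was 2.19% by posterior mean TPM, which is per length. The same leading transcript was found in 29 or 30 of 35 genes, and a CHR element in 32 to 35 windows. A minimum of 100 counts in both libraries dropped no gene, so it could not change the count of leading transcripts.

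Some ratios changed sign. With counts not scaled by length, the log2 ratio was -2.80 for Pttg1 to Espl1, -0.91 for Cdca8 to Incenp, 0.060 for Kif23 to Racgap1 and -0.61 for Tacc3 to Ckap5; long genes gain counts in this setting by its construction. Over complete coding transcripts it was -0.51 for Ccnb1 to Ccnb2, 0.089 for Aurka to Aurkb, -0.070 for Cdca8 to Incenp, 0.058 for Kif23 to Racgap1 and 0.57 for Bub3 to Bub1. In single libraries it ran from -0.11 to 0.17 for Ccnb1 to Ccnb2, from -0.33 to 0.58 for Pttg1 to Espl1, from -0.19 to 0.60 for Racgap1 to Ect2 and from -0.24 to 0.079 for Bub3 to Bub1. Apart from the settings' own construction, the cause was not tested.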
